A study of Mus musculus with 20 samples.

Results

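The genes described here are 34 interferon-induced genes measured in mouse liver, 24 that respond mainly to type I interferons and 10 that respond mainly to interferon-gamma. They were chosen by name. The table that pairs the array's probe sets with genes assigned 33 of the 34 symbols, each to 1 probe set, of 19505 genes in all; Ifi44 was not analysed here. Of these 33, 30 passed the filter on low signal and were tested among 11844 genes, 20 of the type I and all 10 of the interferon-gamma class. In mice given PM2.5 and metformin together, 6 of the 30 tested genes were lower than in filtered air, among them Ifit3, Ddx58 and Irgm1, and 1, Tap1, was higher, where 34.9% of all genes tested passed. That count lay between 3 and 22 on leaving out 1 mouse at a time. It was 0 without combined mice 2 and 4, where 21.5% of all genes passed. Neither PM2.5 alone nor metformin alone gave a call among the 30, where 5.17% and 3.15% of all genes passed.

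All 20 mice were male ob/ob animals, which lack the hormone leptin and become obese, and the livers were taken after 2 weeks. PM2.5 is fine airborne particulate matter. The 4 groups held 5 mice each: PM2.5 exposure with metformin in the drinking water (called the combined group), PM2.5 exposure alone, metformin alone, and filtered air. PM2.5 was given in an exposure chamber for 6 hours a day, and metformin, a glucose-lowering drug, was dosed by body weight. All groups shared the ob/ob genotype, sex, housing temperature and free access to food. The labels do not say which air the metformin group breathed or whether the mice without PM2.5 spent time in the chamber, so particles and the chamber stay cannot be told apart. They name no cages or batches. Mice are numbered 1 to 5 within a group in the order of deposit, and the numbers pair nothing across groups.

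Interferons are cytokines released by infected or activated cells. Type I interferons bind the receptor chains Ifnar1 and Ifnar2, and the kinases Jak1 and Tyk2 then act through Stat2 and Irf9 on a DNA element called ISRE. Interferon-gamma, made mainly by T and natural killer cells, binds Ifngr1 and Ifngr2 and acts through Jak1 and Jak2 on an element called GAS, which induces Irf1 and through it many further genes. In liver, hepatocytes, Kupffer cells (the resident macrophages) and sinusoidal endothelial cells all respond to interferons.

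To show these elements, the RefSeq sequence around each gene's start, from 250 bases before it to 50 after it in the GRCm38.p6 build, was searched for the letters GAAANNGAAA on either strand (TTTCNNTTTC on the other), the core of ISRE, and for TTCNNNGAA, the core of GAS, which reads the same on both strands. Sequences were at hand for 26 of the 34 members. The ISRE letters stood in 9 of 17 type I and 5 of 9 interferon-gamma members, in 46.7% of the members' 30 windows, and in 3.44% of all 32851 windows. The GAS letters stood in 4 of 17 type I and 4 of 9 interferon-gamma members, in 26.7% of the members' windows, and in 8.3% of all windows. The first 3 sequences are whole windows of members whose levels differed between groups, and the rest are stretches around the elements. Capitals mark the ISRE and GAS letters, except in Tap1, whose window holds neither and where capitals mark the 275 bases that also lie, on the other strand, in the window of its neighbour Psmb9.
Ifit3 (chr19:34583279-34583578, plus strand): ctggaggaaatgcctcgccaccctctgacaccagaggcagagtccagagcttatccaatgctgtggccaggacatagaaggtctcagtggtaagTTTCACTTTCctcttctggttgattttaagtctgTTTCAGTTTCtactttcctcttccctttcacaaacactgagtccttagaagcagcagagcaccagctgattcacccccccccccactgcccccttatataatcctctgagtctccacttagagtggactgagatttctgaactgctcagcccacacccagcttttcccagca
Irgm1 (chr11:48871371-48871670, minus strand): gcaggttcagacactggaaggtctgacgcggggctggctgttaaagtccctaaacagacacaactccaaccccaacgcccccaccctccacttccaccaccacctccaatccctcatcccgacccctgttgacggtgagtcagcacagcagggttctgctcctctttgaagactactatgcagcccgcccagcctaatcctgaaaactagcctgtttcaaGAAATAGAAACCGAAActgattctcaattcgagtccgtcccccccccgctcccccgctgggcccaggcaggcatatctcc
Tap1 (chr17:34187306-34187605, plus strand): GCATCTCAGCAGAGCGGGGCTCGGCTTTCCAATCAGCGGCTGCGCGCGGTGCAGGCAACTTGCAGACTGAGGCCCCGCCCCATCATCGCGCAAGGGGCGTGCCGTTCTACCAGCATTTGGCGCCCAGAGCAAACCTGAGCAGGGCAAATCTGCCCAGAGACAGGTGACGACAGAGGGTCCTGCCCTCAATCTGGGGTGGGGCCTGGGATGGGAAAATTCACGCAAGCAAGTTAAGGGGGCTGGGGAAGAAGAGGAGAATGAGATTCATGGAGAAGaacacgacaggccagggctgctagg
Ifit1 (chr19:34640770-34640828, plus strand): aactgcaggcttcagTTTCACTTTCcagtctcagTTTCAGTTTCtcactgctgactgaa
Ddx58 (chr4:40239799-40239838, minus strand): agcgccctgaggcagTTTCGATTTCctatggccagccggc
Isg15 (chr4:156200860-156200911, minus strand): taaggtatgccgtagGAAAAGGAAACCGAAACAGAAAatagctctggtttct
Ifih1 (chr2:62646206-62646238, minus strand): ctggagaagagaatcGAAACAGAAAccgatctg
Rsad2 (chr12:26456548-26456587, minus strand): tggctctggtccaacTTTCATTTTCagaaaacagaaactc
Gbp2 (chr3:142620589-142620628, plus strand): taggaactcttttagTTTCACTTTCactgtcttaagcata
Gbp3 (chr3:142559984-142560029, plus strand): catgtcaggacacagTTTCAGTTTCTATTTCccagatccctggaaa
Gbp7 (chr3:142530268-142530307, plus strand): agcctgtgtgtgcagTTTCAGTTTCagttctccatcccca
Igtp (chr11:58199507-58199546, plus strand): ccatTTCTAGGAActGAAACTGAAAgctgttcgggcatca
Irf1 (chr11:53769909-53769947, plus strand): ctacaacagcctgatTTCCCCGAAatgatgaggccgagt

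Counted from the gene start, the ISRE letters of Ifit3 began at -156 and -122 and those of Ifit1 at -104 and -85. Those of the guanylate-binding genes began at -59 in Gbp2, -45 and -39 in Gbp3 and -53 in Gbp7, and those of Ddx58 at 3, just past the start. Igtp held both elements, with ISRE at -34 and GAS at -45. Those at -30 and -24 in Irgm1 and at -78, -72 and -66 in Isg15 overlapped each other, and in Bst2 a GAS at -136 overlapped an ISRE at -130. A match describes the letters in the window and no more.

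Every value below is a log2 expression value as the authors deposited it, 1 array per mouse, so a difference of 1 is a doubling. Rose and fell are used of a gene where limma's moderated test, fitted over all 4 groups, gave an adjusted p under 0.05 (Benjamini-Hochberg over the 11844 genes). Array medians lay between 4.77 and 4.92, and arrays of a group correlated across genes at 0.9723 to 0.994. The negative-control probe sets had a median of 4.49 on average, and 11 of the 30 tested members had a mean above their mean 95th percentile, 8.36. Isg15, Mx1, Oasl2, Ifit2 and Irf7 lay within about 1 log2 unit of the negative-control median. The dim members Oas1a, Oas2 and Oasl1 did not pass the filter, and each had 19 or 20 of 20 values below the negative-control median. The hepatocyte markers were bright in every array, with a summed linear signal of 2070000 to 2350000.

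Single livers stood apart, and this bears on every result with the combined group. Combined mouse 5 had the highest value of its group in 17 of 20 type I and 10 of 10 interferon-gamma members, and in 31.4% of all tested genes. PM2.5 mouse 5 was the highest of its group in 9 of 10 interferon-gamma members, 6 of 20 type I members and 19.2% of all genes. Combined mouse 2 was the lowest of its group in 12 of 20 and 7 of 10 members, and in 27.1% of all genes. Combined mice 2 and 4 also had the highest negative-control medians of all arrays, 4.79 and 4.69, where the other 18 lay between 4.34 and 4.59. The results are therefore given with all mice, without combined mouse 5, and without combined mice 2 and 4. Mouse 5 was singled out by its high values in these same members. Lower means and a smaller spread without it follow from that choice. Calls gained without it are therefore a description and no separate support. Leaving out mice 2 and 4 takes out the mouse that was lowest in most of these members. It also leaves fewer combined mice, with mouse 5 among them. Calls lost without mice 2 and 4 are therefore a description as well.

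**Figure D1:**
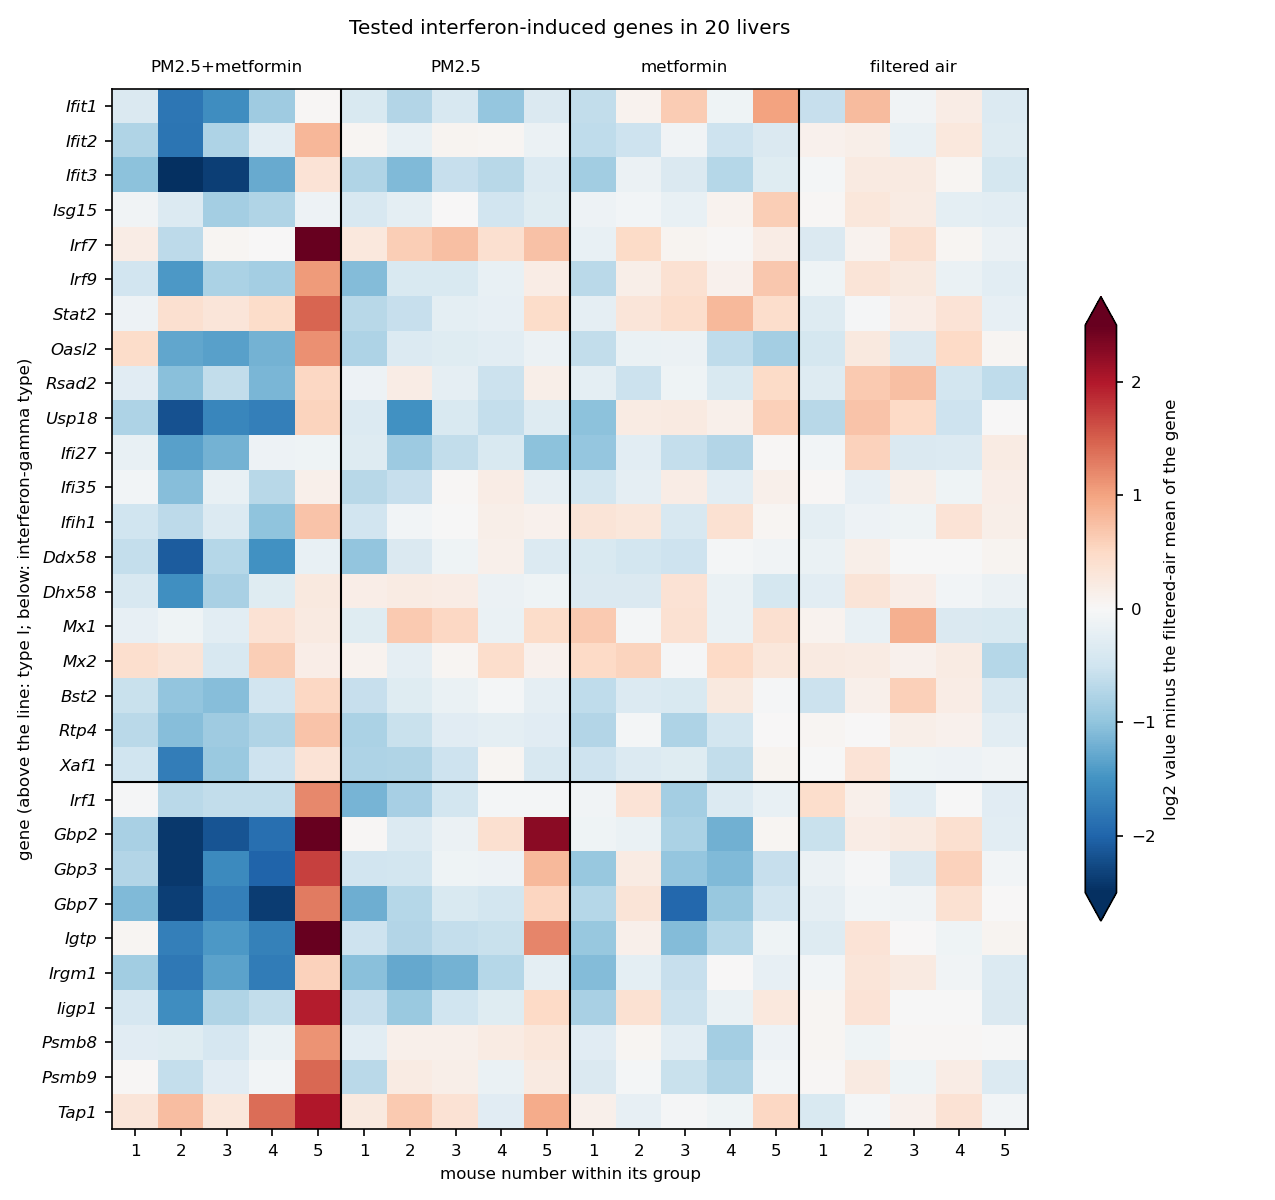
Log2 value of each tested member (rows, type I above the line and interferon-gamma type below it) in each of the 20 mice (columns), minus the mean of that gene in the 5 filtered-air mice. In the combined group, mice 2 to 4 are mostly blue (lower) and mouse 5 is mostly red (higher), with Ifit3 at 6.99 in mouse 2 and 10.29 in mouse 5.

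In the combined group against filtered air, which sets both treatments against neither, 6 members fell and 1 rose. The 5 type I genes that fell encode antiviral proteins and their regulators, Ifit3, Ddx58, Usp18, Ifit1 and Xaf1, at 1.59-fold to 2.74-fold lower. Of the interferon-gamma class, the GTPase gene Irgm1 fell 2.05-fold and the peptide transporter gene Tap1 rose 1.94-fold. Set against the 34.9% of all genes that passed in this comparison, 7 of 30 members is a smaller share. At an unadjusted p under 0.05, 11 members were lower and 1 higher, beside 44.0% of all genes either way. The median difference was -0.51 over the 20 type I members and -0.37 over the 10 interferon-gamma members, beside 0.0109 over all genes tested.

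Ifit3, whose protein binds viral RNA together with its relatives Ifit1 and Ifit2, had 8.92, 6.99, 7.59, 8.69 and 10.29 in combined mice 1 to 5 and 9.90, 10.18, 10.18, 9.99 and 9.51 in filtered-air mice. Combined mice 1 to 4 lay below every filtered-air mouse and mouse 5 lay above them all. The difference was -1.46 ± 0.38 (SE; adjusted p = 0.00546 in limma). It was -1.90 without combined mouse 5 (adjusted p = 4.72e-05) and -1.02 without combined mice 2 and 4 (adjusted p = 0.0527). Ifit3 values were 9.19, 8.85, 9.37, 9.25 and 9.60 with PM2.5 and 9.08, 9.80, 9.58, 9.24 and 9.65 with metformin, and these groups overlapped filtered air. Its near-identical neighbour Ifit3b, a listed but separate gene, differed by -1.32 in limma (adjusted p = 0.00483), and probes may not tell the pair apart.

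Ddx58, which encodes the cytosolic RNA sensor RIG-I, had 9.60, 8.11, 9.48, 8.67 and 10.01 in combined mice and 10.03, 10.33, 10.18, 10.18 and 10.25 in filtered-air mice. Every combined mouse lay below every filtered-air mouse, the nearest at 10.01 and 10.03. The difference was -1.02 ± 0.26 (SE; limma adjusted p = 0.00473), -1.23 without combined mouse 5 and -0.49 without combined mice 2 and 4 (adjusted p = 0.0801). With PM2.5 it had 9.21, 9.83, 10.08, 10.31 and 9.85, and with metformin 9.81, 9.73, 9.67, 10.15 and 10.10. The second RNA sensor, Ifih1 (MDA5), differed by -0.36, and the regulator of both, Dhx58 (LGP2), by -0.57, with adjusted p of 0.254 and 0.0612 in limma. Both fell once combined mouse 5 was left out, by 0.63 for Ifih1 and by 0.77 for Dhx58. Without combined mice 2 and 4 the differences were -0.05 and -0.34 (adjusted p = 0.914 and 0.282).

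Ifit1 had 5.66, 4.22, 4.47, 5.13 and 6.05 in combined mice, 5.64, 5.28, 5.61, 5.05 and 5.66 in PM2.5 mice, 5.41, 6.11, 6.65, 5.91 and 7.03 in metformin mice and 5.45, 6.81, 5.93, 6.21 and 5.67 in filtered-air mice. Combined mice 2, 3 and 4 lay below every metformin and filtered-air mouse, while mice 1 and 5 lay among them. Ifit1 fell against both, by 1.12 ± 0.33 against metformin and 0.91 ± 0.33 against filtered air (SE; limma adjusted p = 0.0242 and 0.0354). Without combined mice 2 and 4 the differences were -0.83 and -0.62, and neither passed in that smaller fit (adjusted p = 0.185 and 0.23).

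Usp18 removes the ubiquitin-like protein Isg15 from its targets and dampens signalling at the type I receptor. It had 7.33, 5.93, 6.47, 6.40 and 8.65 in combined mice and 7.41, 8.81, 8.59, 7.59 and 8.11 in filtered-air mice. Combined mice 1 to 4 lay below all filtered-air mice and mouse 5 among them. The difference was -1.15 ± 0.41 (SE; limma adjusted p = 0.0333), -1.57 without combined mouse 5 and -0.62 without mice 2 and 4 (adjusted p = 0.324). PM2.5 mice had 7.75, 6.58, 7.71, 7.50 and 7.77 and metformin mice 7.07, 8.30, 8.33, 8.23 and 8.69; the difference of the combined from the metformin group was -1.17 ± 0.41 (adjusted p = 0.0534). Isg15 itself, near background, had 4.71, 4.45, 3.94, 4.03 and 4.67 in combined mice, 4.39, 4.55, 4.79, 4.32 and 4.48 with PM2.5, 4.67, 4.72, 4.60, 4.87 and 5.41 with metformin and 4.82, 5.08, 4.99, 4.55 and 4.52 in filtered air. Its differences were -0.49 ± 0.18 against metformin and -0.43 ± 0.18 against filtered air (SE; limma adjusted p = 0.0624 and 0.0651), and the groups overlapped.

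Xaf1, which encodes an antagonist of the apoptosis inhibitor XIAP, had 6.22, 5.0, 5.79, 6.20 and 7.06 in combined mice and 6.71, 7.06, 6.61, 6.59 and 6.63 in filtered-air mice. PM2.5 mice had 5.94, 5.97, 6.20, 6.77 and 6.31 and metformin mice 6.20, 6.37, 6.42, 6.11 and 6.79. Combined mice 1 to 4 lay below every filtered-air mouse and mouse 5 at the top of their range. Xaf1 differed by -0.67 ± 0.26 (SE; limma adjusted p = 0.0479), -0.92 without combined mouse 5 and -0.36 without mice 2 and 4 (adjusted p = 0.298).

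**Figure D2:**
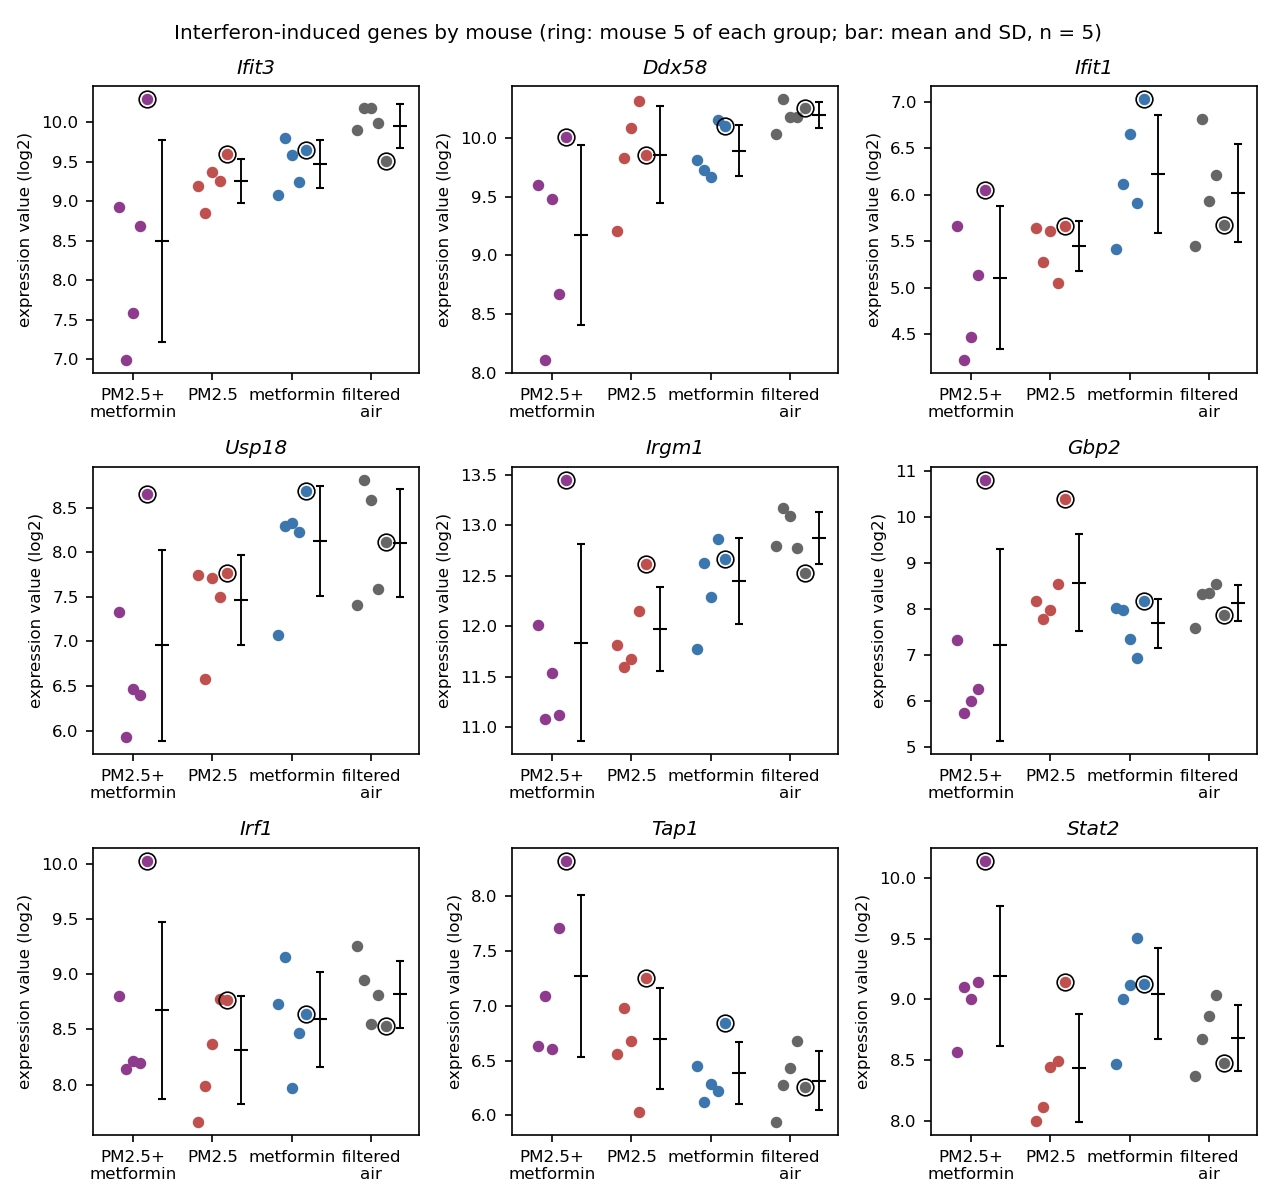
Log2 expression value of 9 members in each mouse, by group, with the group mean and SD (n = 5) as a bar to the right of the points; rings mark mouse 5 of each group. Combined mouse 5 is the highest of its group in all 9 panels, as for Gbp2 at 10.81, and the other combined mice lie lower than the filtered-air mice for Ifit3, Usp18, Irgm1 and Gbp2 but not for Tap1.

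The transcription factors of the pathway did not pass with all mice. Irf9 had 6.51, 5.55, 6.19, 6.14 and 8.05 in combined mice, 5.91, 6.60, 6.60, 6.81 and 7.17 with PM2.5, 6.31, 7.14, 7.37, 7.09 and 7.66 with metformin and 6.88, 7.32, 7.23, 6.82 and 6.72 in filtered air. For Irf9, combined mice 1 to 4 were lower than all filtered-air mice and mouse 5 higher than all. The difference was -0.51 ± 0.34 (SE; limma adjusted p = 0.259), and -0.90 without combined mouse 5 (adjusted p = 0.00907). It was -0.08 without combined mice 2 and 4 (adjusted p = 0.9).

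Its partner Stat2 behaved otherwise, with 8.57, 9.10, 9.0, 9.14 and 10.14 in combined mice, 8.0, 8.11, 8.44, 8.49 and 9.14 with PM2.5, 8.47, 9.0, 9.12, 9.51 and 9.13 with metformin and 8.37, 8.67, 8.86, 9.04 and 8.48 in filtered air. Combined mouse 5 was the highest of all livers, 4 of 5 PM2.5 mice lay below every combined mouse, and the groups overlapped. The difference from PM2.5 was 0.75 ± 0.25 (SE; limma adjusted p = 0.0542) and that from filtered air 0.50 ± 0.25 (adjusted p = 0.126). With combined mouse 5 left out these were 0.52 (adjusted p = 0.114) and 0.27. With mice 2 and 4 left out they were 0.80 and 0.55 (adjusted p = 0.194 and 0.204).

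Irf7, the factor that amplifies type I interferon genes, had 5.16, 4.33, 5.02, 4.98 and 7.47 in combined mice, 5.24, 5.59, 5.73, 5.38 and 5.71 with PM2.5, 4.8, 5.45, 5.05, 5.01 and 5.17 with metformin and 4.62, 5.07, 5.38, 5.02 and 4.83 in filtered air. Combined mouse 5 was the highest and combined mouse 2 the lowest of all 20 livers. Against PM2.5 the difference was -0.14 ± 0.36 with all mice (SE; limma adjusted p = 0.849) and -0.66 without combined mouse 5 (adjusted p = 0.016). It was 0.35, the other direction, without combined mice 2 and 4 (adjusted p = 0.703). Against filtered air it was 0.41 with all mice, -0.11 without mouse 5 and 0.90 without mice 2 and 4 (adjusted p = 0.0833). Irf1, the first factor that interferon-gamma induces, had 8.80, 8.14, 8.21, 8.20 and 10.03 in combined mice, 7.66, 7.99, 8.37, 8.78 and 8.77 with PM2.5, 8.73, 9.16, 7.97, 8.47 and 8.64 with metformin and 9.26, 8.95, 8.55, 8.81 and 8.53 in filtered air. Its groups overlapped in all comparisons, and the difference of the combined group from filtered air was -0.14 ± 0.31 (SE; limma adjusted p = 0.756).

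Among interferon-gamma type genes, Irgm1 encodes an immunity-related GTPase that restrains intracellular microbes in macrophages. It had 12.01, 11.08, 11.54, 11.12 and 13.45 in combined mice, 11.82, 11.60, 11.68, 12.15 and 12.62 in PM2.5 mice, 11.78, 12.63, 12.29, 12.87 and 12.67 in metformin mice and 12.80, 13.17, 13.09, 12.78 and 12.53 in filtered-air mice. Combined mice 1 to 4 were below all filtered-air mice and mouse 5 above all, and 4 of 5 PM2.5 mice were also below all filtered-air mice. Irgm1 fell by 1.04 ± 0.33 in the combined group against filtered air (SE; limma adjusted p = 0.0187), and the difference was -1.44 without combined mouse 5 and -0.54 without mice 2 and 4 (adjusted p = 0.259). PM2.5 alone against filtered air gave -0.90 ± 0.33 (adjusted p = 0.109).

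The guanylate-binding proteins, GTPases that attack the vacuoles of intracellular microbes, had genes of wide spread between mice. Gbp2 had 7.32, 5.73, 5.99, 6.26 and 10.81 in combined mice and 8.17, 7.79, 7.99, 8.54 and 10.40 in PM2.5 mice, with mouse 5 the highest in both. Metformin mice had 8.03, 7.98, 7.34, 6.93 and 8.18 and filtered-air mice 7.58, 8.33, 8.36, 8.54 and 7.87 for Gbp2. Combined mice 1 to 4 were below every PM2.5 and filtered-air mouse, and combined mouse 5 was above every other liver of the study. The differences were -1.35 ± 0.67 against PM2.5 and -0.92 ± 0.67 against filtered air (SE; limma adjusted p = 0.196 and 0.309). Leaving out combined mouse 5 gave -2.25 and -1.81 (adjusted p = 0.000968 and 0.00192), and leaving out mice 2 and 4 gave -0.54 and -0.10 (adjusted p = 0.786 and 0.939).

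Gbp3 had 6.90, 5.23, 6.05, 5.63 and 9.34 in combined mice, 7.17, 7.18, 7.54, 7.52 and 8.46 with PM2.5, 6.69, 7.85, 6.68, 6.54 and 7.06 with metformin and 7.49, 7.62, 7.28, 8.22 and 7.57 in filtered air. The pattern was that of Gbp2, with combined mice 1 to 4 below and mouse 5 above all filtered-air mice. Gbp7 had 9.65, 8.40, 9.04, 8.37 and 12.05 in combined mice, 9.52, 10.03, 10.36, 10.30 and 11.29 with PM2.5, 10.04, 11.07, 8.79, 9.81 and 10.27 with metformin and 10.53, 10.68, 10.67, 11.13 and 10.75 in filtered air. Here too combined mice 1 to 4 lay below and mouse 5 above all filtered-air mice, and metformin mouse 3 was low at 8.79. Against filtered air, limma gave -1.0 ± 0.51 for Gbp3 and -1.25 ± 0.51 for Gbp7 (SE; adjusted p = 0.131 and 0.0632). Leaving out combined mouse 5 gave -1.68 and -1.88 (adjusted p = 0.000368 and 0.000442). Leaving out mice 2 and 4 gave -0.20 and -0.50 (adjusted p = 0.805 and 0.525).

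Tap1 pumps peptides into the endoplasmic reticulum for loading on MHC class I molecules, and it was the member that rose. It had 6.63, 7.09, 6.61, 7.71 and 8.32 in combined mice, 6.56, 6.98, 6.68, 6.03 and 7.25 in PM2.5 mice, 6.45, 6.12, 6.29, 6.22 and 6.84 in metformin mice and 5.94, 6.28, 6.43, 6.68 and 6.26 in filtered-air mice. Combined mice 2, 4 and 5 lay above every metformin and filtered-air mouse, and mice 1 and 3 lay among them. The rise was 0.95 ± 0.27 against filtered air and 0.89 ± 0.27 against metformin (SE; limma adjusted p = 0.00987 and 0.0303), and the difference from PM2.5 was 0.57 ± 0.27 (adjusted p = 0.181). Without combined mouse 5 it was 0.69 against filtered air (adjusted p = 0.0282) and 0.63 against metformin (adjusted p = 0.0686). Without combined mice 2 and 4 the difference from filtered air was 0.87 (adjusted p = 0.0577).

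Psmb9 and Psmb8 encode catalytic subunits of the immunoproteasome, which cuts the peptides that Tap1 carries, and the starts of Tap1 and Psmb9 lie 226 bases apart on opposite strands, as the printed window shows. Psmb9 had 6.77, 6.16, 6.47, 6.69 and 8.18 in combined mice, 6.07, 6.96, 6.89, 6.59 and 6.97 with PM2.5, 6.38, 6.70, 6.20, 6.0 and 6.68 with metformin and 6.78, 6.97, 6.65, 6.94 and 6.40 in filtered air. Psmb8 had 6.81, 6.80, 6.68, 6.93 and 8.23 in combined mice, 6.83, 7.23, 7.22, 7.30 and 7.39 with PM2.5, 6.81, 7.15, 6.83, 6.25 and 6.97 with metformin and 7.15, 7.0, 7.12, 7.13 and 7.09 in filtered air. In both, combined mouse 5 stood above all other livers. For Psmb8, combined mice 1 to 4 lay below every filtered-air mouse, and for Psmb9 they lay within or below the filtered-air range. The combined group differed from filtered air by 0.10 ± 0.27 for Psmb9 and -0.01 ± 0.22 for Psmb8 (SE; limma adjusted p = 0.799 and 0.987). Whether Tap1 differed more than Psmb9 was not tested.

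Of the remaining type I members with values set out by mouse, Ifi27, a small mitochondrial protein, had 9.14, 7.98, 8.15, 9.21 and 9.23 in combined mice, 9.01, 8.43, 8.71, 8.94 and 8.30 with PM2.5, 8.36, 9.06, 8.73, 8.60 and 9.36 with metformin and 9.26, 9.90, 8.97, 8.99 and 9.53 in filtered air. Among PM2.5 mice, 4 of 5 lay below every filtered-air mouse. Rtp4 had 6.35, 5.95, 6.13, 6.26 and 7.74 in combined mice, 6.22, 6.46, 6.73, 6.78 and 6.73 with PM2.5, 6.28, 6.98, 6.25, 6.57 and 7.02 with metformin and 7.06, 7.03, 7.16, 7.12 and 6.76 in filtered air. For Rtp4, combined mice 1 to 4 lay below and mouse 5 above all filtered-air mice. Dhx58 had 5.60, 4.48, 5.19, 5.71 and 6.25 in combined mice, 6.18, 6.21, 6.20, 5.87 and 5.91 with PM2.5, 5.64, 5.65, 6.37, 5.85 and 5.58 with metformin and 5.75, 6.34, 6.17, 5.95 and 5.87 in filtered air. Its combined mice 1 to 4 lay below all PM2.5 and filtered-air mice. The combined group differed from filtered air by -0.59 ± 0.26 for Ifi27 and -0.54 ± 0.25 for Rtp4 (SE; limma adjusted p = 0.0811 and 0.0979). With combined mouse 5 left out this gave -0.71 and -0.85 (adjusted p = 0.041 and 0.000661). With mice 2 and 4 left out it gave -0.49 and -0.29 (adjusted p = 0.207 and 0.487).

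The dynamin-like antiviral GTPases Mx1 and Mx2 showed no such pattern. Mx1 had 4.26, 4.37, 4.20, 4.83 and 4.69 in combined mice, 4.17, 5.13, 4.99, 4.30 and 4.92 with PM2.5, 5.12, 4.42, 4.86, 4.30 and 4.87 with metformin and 4.55, 4.28, 5.36, 4.11 and 4.08 in filtered air, all near background. Mx2 had 7.22, 7.13, 6.39, 7.41 and 6.97 in combined mice, 6.88, 6.58, 6.84, 7.24 and 6.91 with PM2.5, 7.30, 7.35, 6.77, 7.29 and 7.09 with metformin and 7.03, 7.0, 6.91, 7.0 and 6.08 in filtered air. Their groups overlapped throughout, and the combined group differed from filtered air by 0.0 ± 0.24 for Mx1 and 0.22 ± 0.20 for Mx2 (SE; limma adjusted p = 0.991 and 0.423). The other tested members, Ifit2, Oasl2, Rsad2, Ifi35, Ifih1 and Bst2 of the type I class and Igtp and Iigp1 of the interferon-gamma class, differed from filtered air by -0.56 (Ifit2) to -0.27 (Iigp1), and none passed. Of the dim members, fitted without the filter, Oasl1 differed by -0.83 (limma adjusted p = 0.0236).

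How many members passed turned on which combined mice were in the fit. Without combined mouse 5, 21 of 30 members fell against filtered air and 1, Tap1, rose, where 18.7% of all genes fell. Of those 21, 15 were type I and 6 interferon-gamma type, with class medians of -0.77 and -1.02. Because mouse 5 was singled out by its values in these members, that count is descriptive only. In turn, 0 of 30 members passed without combined mice 2 and 4, where 21.5% of all genes did. The class medians were then -0.26 and 0.17. That count is descriptive too, because mouse 2 was the lowest combined mouse in most of these members and mouse 5 stayed in. Leaving out 1 other mouse also moved the count, to 3 without combined mouse 2 or 4 and to 4 without combined mouse 3 or filtered-air mouse 2 or 3. With the negative-control median of each array as a covariate, 0 members passed and the class medians were -0.13 and 0.35. The part of that background in the members' differences was not tested.

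**Figure D3:**
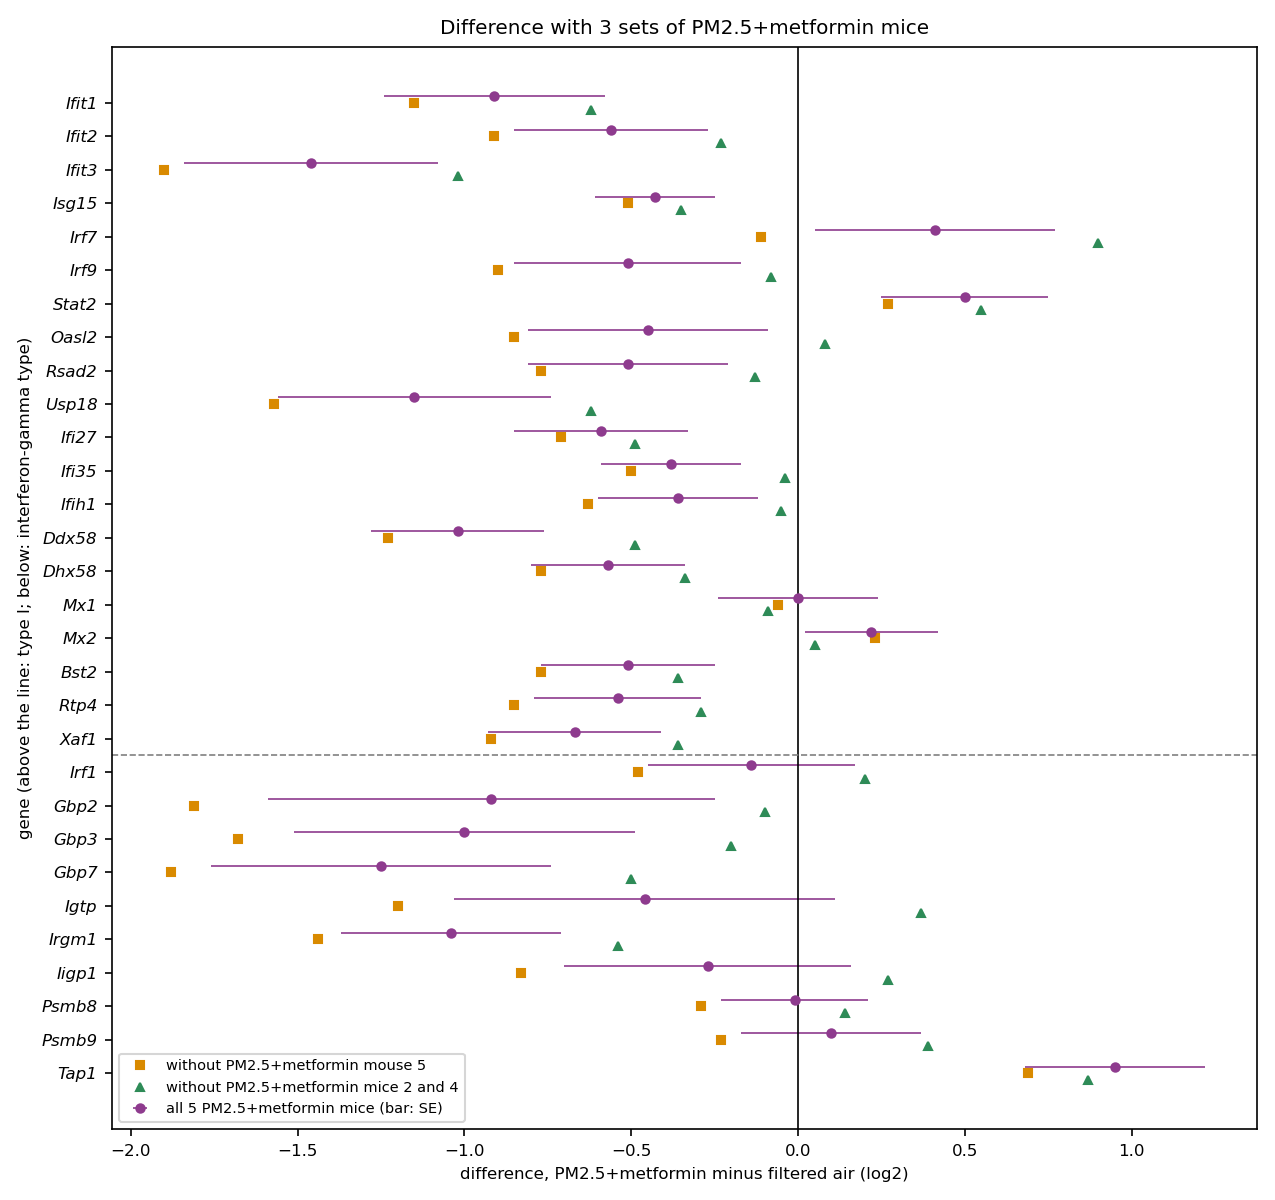
Difference between the combined group and filtered air (log2, x axis) for each of the 30 tested members (rows), with all 5 combined mice (circles, bars are SE), without combined mouse 5 (squares) and without combined mice 2 and 4 (triangles). Nearly all squares lie further left than the circles and most triangles nearer to 0, as for Gbp7 at -1.25 with all mice, -1.88 without mouse 5 and -0.50 without mice 2 and 4.

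The combined group against PM2.5 alone asks what metformin added under exposure, and 0 of 30 members passed in limma with all mice, where 11.7% of all genes did. At an unadjusted p under 0.05, where 27.0% of all genes lay, Stat2 and Tap1 were higher and Ddx58 and Dhx58 lower. Dhx58 differed by -0.63 ± 0.23 and Ddx58 by -0.68 ± 0.26 (SE; limma adjusted p = 0.0815 and 0.0945). The class medians were -0.21 for type I and -0.12 for interferon-gamma type genes. They were -0.51 and -0.51 without combined mouse 5, 0 and 0.40 without combined mice 2 and 4, and 0.04 and 0.43 with the negative-control covariate. Without combined mouse 5, 9 members fell (9.42% of all genes fell), namely Ifit2, Ifit3, Irf7, Ifih1, Ddx58 and Dhx58 of the type I class and Gbp2, Gbp3 and Gbp7 of the other. No member (0 of 30) passed without combined mice 2 and 4, beside 1.74% of all genes. The count was 1 without combined mouse 1, PM2.5 mouse 5 or metformin mouse 1, a rise each time.

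The combined group against metformin alone asks what PM2.5 exposure added under the drug. Ifit1 fell and Tap1 rose, 2 of 30 members, where 16.3% of all genes passed. At an unadjusted p under 0.05, 5 members were lower and 1 higher, beside 30.9% of all genes either way. The lower ones with Ifit1 were Ifit3 at -0.97 ± 0.38, Usp18, Isg15 and Ddx58 at -0.72 ± 0.26 (SE; limma adjusted p from 0.0534 for Usp18 to 0.0833 for Ifit3). Class medians were -0.31 for type I and -0.01 for interferon-gamma type genes. They were -0.56 and -0.65 without combined mouse 5, -0.14 and 0.44 without combined mice 2 and 4, and -0.22 and 0.34 with the covariate. Without combined mouse 5, 11 members fell, 7 type I and 4 interferon-gamma type, where 9.85% of all genes fell. With combined mice 2 and 4 left out, 0 members passed, beside 4.21% of all genes. The count was also 0 without combined mouse 4 or metformin mouse 3, 1 without combined mouse 2 or 3 or metformin mouse 2, 4 or 5, and 4 without combined mouse 1.

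PM2.5 alone against filtered air gave 0 calls among the 30 members in limma, where 5.17% of all genes passed. At an unadjusted p under 0.05, where 22.5% of all genes lay, Irgm1 and Ifi27 were lower. Ifi27 differed by -0.66 ± 0.26 (SE; limma adjusted p = 0.133). Class medians were -0.28 over type I genes, 16 of 20 of them below 0, and -0.15 over interferon-gamma type genes, 7 of 10 below 0. Next in order of p stood Xaf1 at -0.48 ± 0.26 and Ifit3 at -0.70 ± 0.38, and, of the other class, Irf1 at -0.50 ± 0.31 and Tap1 at 0.38 ± 0.27, with adjusted p of 0.275 to 0.428. With combined mouse 5 left out of the shared fit, Irgm1 passed here (adjusted p = 0.0232). With combined mice 2 and 4 left out it did not (adjusted p = 0.0584).

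Metformin alone against filtered air also gave 0 calls among the 30 members in limma, and 0 at an unadjusted p under 0.05, where 3.15% and 18.6% of all genes lay. The class medians were -0.14 for type I genes and -0.39 for interferon-gamma type genes, of which 9 of 10 were below 0. The lowest p of the type I class belonged to Ifi27 at -0.51 ± 0.26, Mx2 at 0.36 ± 0.20 and Rtp4 at -0.40 ± 0.25. Of the other class it was Gbp7 at -0.75 ± 0.51, Gbp3 at -0.67 ± 0.51 and Psmb8 at -0.30 ± 0.22 (SE). The limma adjusted p of these 6 lay between 0.294 and 0.455, and their groups overlapped. Both of these comparisons share the filtered-air mice.

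The interaction asks whether the effect of metformin differed with and without PM2.5. In limma 0 of 30 members passed and 0 had an unadjusted p under 0.05, beside 0.186% and 13.0% of all genes. Class medians were -0.24 and 0.28 for type I and interferon-gamma type genes. They were -0.48 and -0.21 without combined mouse 5, and 0.15 and 0.74 without combined mice 2 and 4. With the negative-control covariate they were -0.07 and 0.48. The lowest p belonged to Ifi27 at 0.58 ± 0.36, Mx1 at -0.47 ± 0.34 and Dhx58 at -0.43 ± 0.33 of the first class, and to Irf1 at 0.59 ± 0.43, Psmb9 at 0.51 ± 0.38 and Tap1 at 0.51 ± 0.39 of the second (SE; adjusted p from 0.534 for Ifi27 to 0.617 for Tap1). The SE of the interaction ran from 0.25 for Isg15 to 0.95 for Gbp2.

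The interferon-gamma members varied more between mice of a group than the type I members, as a description with no test. The median within-group SD, pooled over the 4 groups, was 0.44 over type I members, 0.68 over interferon-gamma members and 0.29 over all genes. Within the combined group the medians were 0.69, 1.15 and 0.30, and within filtered air 0.27, 0.26 and 0.24. Of the interferon-gamma members, 9 of 10 lay above the 90th percentile of within-group SD over all genes, and of the type I members 8 of 20.

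As a mean over the members of a class in each mouse, set against the filtered-air mean, the type I genes lay at -0.33, -1.17, -0.82, -0.60 and 0.55 in combined mice 1 to 5. The PM2.5 mice had -0.45, -0.36, -0.14, -0.18 and -0.10, and the metformin mice -0.39, -0.08, -0.06, -0.13 and 0.14, against -0.18, 0.23, 0.16, -0.01 and -0.20 in filtered air. So 4 of 5 combined mice lay below every filtered-air mouse and 1 above. The interferon-gamma genes lay at -0.39, -1.30, -1.0, -0.98 and 1.65 in combined mice, and at -0.57, -0.43, -0.27, -0.21 and 0.65 in PM2.5 mice. They lay at -0.52, 0.08, -0.76, -0.62 and -0.09 in metformin mice, against -0.11, 0.13, -0.02, 0.17 and -0.17 in filtered air. Mouse 5 of the combined group and mouse 5 of the PM2.5 group were set apart more by the interferon-gamma genes, whose mean exceeded that of the type I genes by 1.10 and 0.76 there and by at most 0.18 in the other 18 mice.

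**Figure D4:**
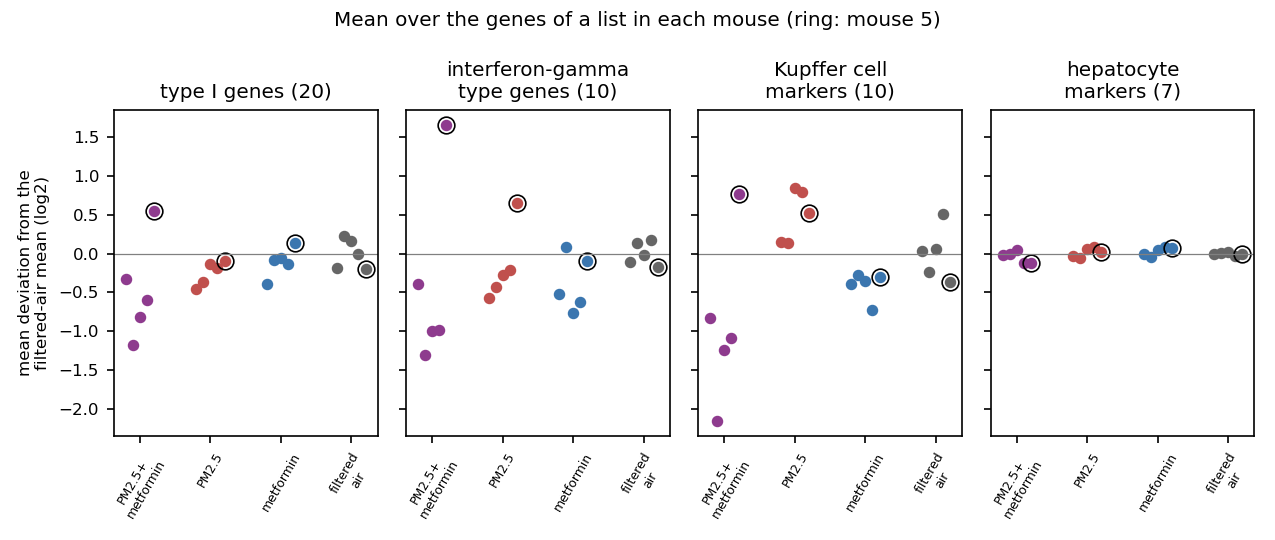
Mean over the genes of a list in each mouse, as deviation from the filtered-air mean (log2, y axis), by group, for type I and interferon-gamma type members and for markers of Kupffer cells and hepatocytes; rings mark mouse 5 of each group. In the combined group the first 3 lists share an order in which mouse 2 is lowest (-1.17, -1.30 and -2.15) and mouse 5 highest (0.55, 1.65 and 0.76), while the hepatocyte markers lie between -0.12 and 0.08 over all 20 mice.

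The mean of the Kupffer cell markers moved with the members in the combined group. Of 11 markers 10 were on the array, none averaged below the negative-control median in any group, and their summed linear signal ran from 2540 to 32300 in combined mice, 19600 to 31100 with PM2.5, 10100 to 14600 with metformin and 14400 to 28900 in filtered air. In limma 6 of the 10 fell in the combined group against filtered air, Vsig4 and Adgre1 among them, 8 against PM2.5 and 1 against metformin. Of all genes 34.9%, 11.7% and 16.3% passed in these comparisons, either way. With all mice 9 of the 10 lay below filtered air in the combined group and 1 above, by 0.56. The counts that fell were 7, 9 and 6 without combined mouse 5, where 18.7%, 9.42% and 9.85% of all genes fell. Without combined mice 2 and 4 they were 2, 1 and 0, and 1 marker rose against filtered air. In that fit 21.5%, 1.74% and 4.21% of all genes passed. As a mean the Kupffer markers lay at -0.83, -2.15, -1.24, -1.09 and 0.76 in combined mice, 0.15, 0.13, 0.84, 0.79 and 0.52 with PM2.5, -0.39, -0.28, -0.35, -0.73 and -0.30 with metformin, and 0.03, -0.24, 0.06, 0.51 and -0.37 in filtered air. In the PM2.5 group they went the other way from the type I members. All 10 Kupffer markers lay above filtered air there, by a median of 0.45 with 0 passing in limma. At an unadjusted p under 0.05 there were 3, beside 22.5% of all genes. The type I means of the 5 mice were all below 0. The 8 endothelial markers had a summed signal of 7830 to 26200 in combined mice, 26000 to 34900 with PM2.5, 19800 to 29100 with metformin and 23800 to 32600 in filtered air, and 3 of them fell in the combined group against filtered air (5 without combined mouse 5, 2 without mice 2 and 4). In the same comparison 3 of 5 stellate cell, 1 of 3 cholangiocyte, 1 of 4 plasmacytoid dendritic cell, 0 of 4 neutrophil and 0 of 3 monocyte and dendritic cell markers fell. These counts, and the 3 of 8 endothelial markers, stand beside the 34.9% of all genes that passed there. Of the 7 hepatocyte markers 0 passed in any comparison in limma (0 at an unadjusted p under 0.05). Of the 12 T and natural killer cell markers, the cells known to make interferon-gamma, 9 averaged below the negative-control median in every group, Cd3e and Ncr1 among them. The other 3, Cd4, Klrb1c and Gzma, were tested and 0 passed in any comparison in limma (0 at an unadjusted p under 0.05). Their mean was 0.91 in combined mouse 5, the highest of all 20 mice, and -0.21 to 0.19 in the other combined mice, -0.08 to 0.79 with PM2.5, -0.19 to 0.50 with metformin and -0.37 to 0.33 in filtered air. All 3 lay above filtered air with PM2.5, with metformin and in the combined group, by medians of 0.47, 0.29 and 0.19. The part of these cells in the members' differences was not tested, and in bulk liver fewer cells of a type and less RNA per cell cannot be told apart.

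Of the interferon genes themselves most lay at background. Interferon-gamma (Ifng) averaged 3.56 ± 0.17 in combined mice, 3.48 ± 0.33 with PM2.5, 3.52 ± 0.28 with metformin and 3.74 ± 0.26 in filtered air (SD, n = 5), and interferon-beta (Ifnb1) averaged 3.46 ± 0.11 in combined mice, 3.45 ± 0.11 with PM2.5, 3.54 ± 0.18 with metformin and 3.62 ± 0.35 in filtered air. All 20 values of each lay below the negative-control median. Of 17 ligands and interferon-inducing cytokines listed, 15 were on the array and 6 were tested. Ifna2, Ifna4, Ifna12, Ifne, Ifnk, Il12a and Il27 were likewise too dim to test, and Ifna1, Ifna5, Ifnl2 and Ifnl3 passed in no comparison in limma, with differences of the combined group from filtered air of -0.27 (Ifnl2) to -0.05 (Ifna1). Il15, which sustains natural killer cells, fell in the combined group against filtered air (-0.99 ± 0.26; limma adjusted p = 0.00516). Il18, a cytokine that drives interferon-gamma release, fell with metformin alone (-1.01 ± 0.27; adjusted p = 0.043), a call kept in 18 of 31 alternatives and lost, among others, on leaving out any 1 of the 5 filtered-air mice, with the compared arrays alone, with no filter and with the covariate. Il18 in the combined group differed from filtered air by -0.24.

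Receptors differed from each other. The interferon-gamma receptor chain Ifngr1 had 9.35, 9.14, 9.40, 8.65 and 10.61 in combined mice, 10.60, 10.42, 10.94, 11.06 and 10.37 with PM2.5, 10.67, 10.17, 10.25, 9.53 and 10.26 with metformin and 10.41, 10.29, 10.27, 10.63 and 10.72 in filtered air. Only combined mouse 5 lay among the PM2.5 and filtered-air mice. Ifngr1 fell against PM2.5 (-1.25 ± 0.26; limma adjusted p = 0.00525) and against filtered air (-1.04 ± 0.26; adjusted p = 0.0043), and without combined mice 2 and 4 the differences were -0.89 and -0.68 (adjusted p = 0.0954 and 0.0744). Ifngr2, Ifnar1 and Ifnar2 passed in no comparison and differed from filtered air in the combined group by 0.21, -0.05 and 0.23. Il10rb, a chain of the interferon-lambda receptor, fell against filtered air (-0.84 ± 0.27; adjusted p = 0.019) and against metformin (-0.91 ± 0.27; adjusted p = 0.0257). Of the kinases, Jak1 rose against filtered air (0.43 ± 0.15; adjusted p = 0.0291), Jak2 rose against metformin (0.57 ± 0.17; adjusted p = 0.0275), and Tyk2 differed from filtered air by 0.07 (adjusted p = 0.772). The receptor chain Ifnlr1 and the feedback inhibitors Socs1 and Socs3 were at background in all 20 mice.

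Stat3, best known as the factor downstream of interleukin-6, rose in all 5 comparisons between groups. It had 10.05, 11.31, 10.33, 11 and 10.81 in combined mice, 9.54, 10.06, 9.61, 9.78 and 9.86 with PM2.5, 10.27, 9.96, 10.34, 10.11 and 9.53 with metformin and 8.71, 8.77, 9.11, 9.31 and 9.15 in filtered air. All 15 mice of the other groups lay above every filtered-air mouse. The rise was 1.69 ± 0.21 in the combined group, 0.76 ± 0.21 with PM2.5 and 1.03 ± 0.21 with metformin, each against filtered air (SE; limma adjusted p = 1.16e-05, 0.0358 and 0.00834). Against filtered air the combined difference was 1.66 without combined mouse 5 and 1.39 without mice 2 and 4 (adjusted p = 0.000311). Irf2, which opposes Irf1 on shared sites, rose in the combined group against PM2.5 (1.08 ± 0.24; adjusted p = 0.00607) and filtered air (0.70 ± 0.24; adjusted p = 0.0243). Apart from that of Stat3 against filtered air, none of the combined group's calls on Il15, the receptors, kinases and factors passed without combined mice 2 and 4 or with the negative-control covariate. Without those mice 21.5%, 4.21% and 1.74% of all genes passed against filtered air, metformin and PM2.5. With the covariate 1054, 1009 and 79 of all 11844 genes did, in the same order. Without combined mice 2 and 4 Stat3 differed by 0.63 from PM2.5 and 0.36 from metformin. The rise of Stat3 with PM2.5 alone was kept in 24 of 31 alternatives and that with metformin alone in all 31.

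**Figure D5:**
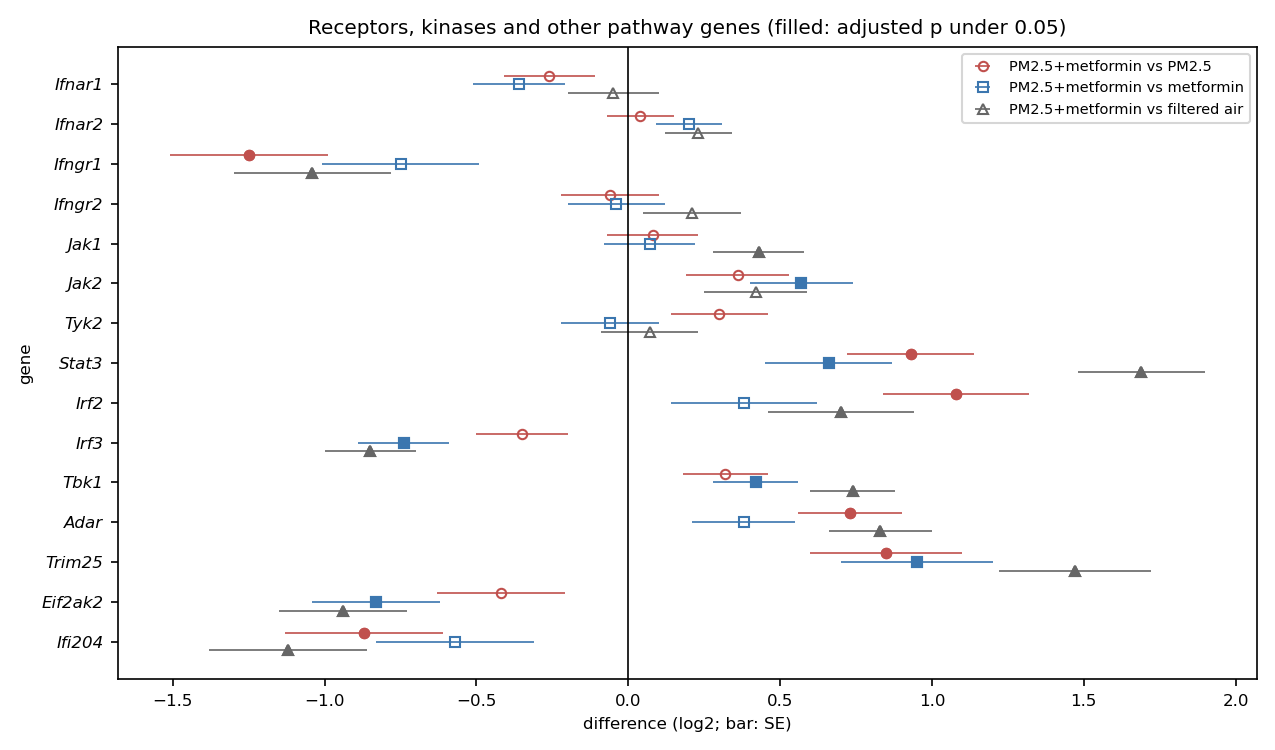
Difference (log2, x axis; bars are SE) of the combined group from PM2.5 (circles), metformin (squares) and filtered air (triangles) for 15 genes of the pathway that are no members (rows); filled symbols passed in limma at an adjusted p under 0.05. Stat3, Trim25, Adar and Tbk1 lie to the right, with Stat3 at 1.69 against filtered air, while Ifngr1, Irf3, Eif2ak2 and Ifi204 lie to the left.

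Sensor and adaptor genes moved both ways. Of 20 listed, 15 were tested, and in the combined group against filtered air 3 rose and 4 fell, 7 of 15 beside the 34.9% of all genes. Trim25, the ubiquitin ligase that activates RIG-I, rose by 1.47 ± 0.25, Adar, which edits double-stranded RNA, by 0.83 ± 0.17, and Tbk1, the kinase that phosphorylates Irf3, by 0.74 ± 0.14 (SE; limma adjusted p = 0.000171, 0.000987 and 0.000396). Irf3, which Tbk1 activates, fell (-0.85 ± 0.15; adjusted p = 0.000246), as did Eif2ak2, the RNA-activated kinase PKR (-0.94 ± 0.21; adjusted p = 0.00195), and the RNA receptor Tlr7 (-1.53 ± 0.40; adjusted p = 0.00536). The lipopolysaccharide receptor Tlr4 was the other to fall. Without combined mice 2 and 4, all but Tlr7 and Tlr4 of these still passed, with adjusted p of 0.00234 for Tbk1 to 0.0426 for Eif2ak2. Against metformin, Trim25 and Tbk1 rose and Irf3 and Eif2ak2 fell. Against PM2.5, Trim25, Adar and the RIG-I adaptor Mavs (0.59 ± 0.18; adjusted p = 0.0397) rose and Tlr7 fell. In the smaller fit without combined mice 2 and 4 only the call of Irf3 against metformin passed. The differences there were 0.86 for Trim25, 0.38 for Tbk1 and -0.49 for Eif2ak2 against metformin, where all mice gave 0.95, 0.42 and -0.83. Against PM2.5 they were 0.72 for Mavs, 0.75 for Trim25, 0.61 for Adar and -0.75 for Tlr7, where all mice gave 0.59, 0.85, 0.73 and -1.30. With the negative-control covariate, 3 of the 7 calls against filtered air (Irf3, Tbk1 and Trim25), 2 of 4 against metformin (Irf3 and Trim25) and 0 of 4 against PM2.5 passed. Over all genes there were 1054, 1009 and 79 calls with the covariate in that order, and 4136, 1933 and 1383 without it. With PM2.5 alone the adaptor Myd88 rose against filtered air (0.85 ± 0.20; adjusted p = 0.0167).

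Further interferon-induced genes outside the 34 did likewise. Of 41 tested genes of the type I kind, 5 rose and 8 fell in the combined group against filtered air, 13 of 41 and near the 34.9% of all genes. The risers Helz2, Parp10, Parp12 and Znfx1 gained 1.32 ± 0.22, 1.12 ± 0.21, 0.85 ± 0.15 and 1.06 ± 0.19. Pnpt1, a mitochondrial RNA nuclease, fell most clearly (-1.56 ± 0.23; limma adjusted p = 5.07e-05), and Trim30a and Ube2l6, the enzyme that conjugates Isg15, fell by 1.58 ± 0.38 and 0.95 ± 0.21. In this list 5 rose and 5 fell without combined mice 2 and 4, beside 21.5% of all genes. With the covariate 5 of the 13 calls were kept, those of Helz2, Parp10, Parp12, Pnpt1 and Znfx1, while Trim30a differed by -0.56 and Ube2l6 by -0.59 (adjusted p = 0.353 and 0.133). Over all genes this comparison had 1054 calls with the covariate and 4136 without it. Of 28 tested genes of the interferon-gamma kind, 2 rose, the MHC class I gene H2-D1 (0.45 ± 0.15) and the Tap1-associated chaperone Tapbp (0.60 ± 0.16), and 4 fell, among them the MHC class II gene H2-Aa (-1.37 ± 0.50) and the inflammatory caspase Casp1 (-1.04 ± 0.31; adjusted p of the 4 from 0.00631 for Tapbp to 0.0374 for H2-Aa). Only 1, Tapbp, passed without combined mice 2 and 4, and 0 of the 6 with the covariate. Against metformin, 6 of the 41 genes of the type I kind rose and 3 fell, where 16.3% of all genes passed. Against PM2.5, 3 rose and 3 fell, where 11.7% of all genes did. Parp12 rose in both, by 0.88 ± 0.15 against metformin and 0.94 ± 0.15 against PM2.5 (SE; adjusted p = 0.00101 and 0.000912), and so did Parp10 and Znfx1. Without combined mice 2 and 4 these counts were 2 and 1 against metformin, and 1 and 0 against PM2.5. They stand beside 4.21% and 1.74% of all genes. Of the interferon-gamma kind, H2-D1 rose in both, Tapbp against metformin, and H2-Aa (-1.92 ± 0.50) and H2-Ab1 (-1.66 ± 0.47) fell against PM2.5, and none of these passed without combined mice 2 and 4. In PM2.5 alone against filtered air, Tor3a rose (1.62 ± 0.34; adjusted p = 0.00822) and Nmi fell (-0.63 ± 0.18; adjusted p = 0.0443). The call on Tor3a was kept in all 31 alternatives run and that on Nmi in 18, with losses, among others, on leaving out any 1 of 4 filtered-air or 4 PM2.5 mice.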

How the data were processed

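Liver RNA of 20 mice was measured on 1 Affymetrix array each. The values are log2 expression values as deposited by the authors. Per the submitters' processing notes Affymetrix Expression Console was used, and the normalization is not given in the sources used here. The array the series text names does not carry these probe set IDs. The deposited values were used without further normalization. Of 28846 probe sets, 6640 are controls, 19572 had 1 gene symbol, 0 several and 2634 none, and a gene's probe set with the highest mean was kept. Genes with a mean above the 40th percentile of the other probe sets (log2 4.05) were tested, 11844 of 19505. The test was limma 3.58.1 in R 4.3.3, with 1 model of 4 group means and Benjamini-Hochberg adjustment. It was tested on simulated data. The p-values measure the spread between these mice, and the number of arrays limits precision. The 6 comparisons share groups.

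Members and gene lists were chosen with earlier results of these data known. Members with values set out by mouse were those past the threshold in any comparison, the 3 of each class with the lowest p in each comparison, and Irf1, Irf7, Irf9 and Stat2. Other pathway genes were named if they passed, at most 5 a list and comparison, and receptors, ligands and kinases in any case. Alternatives were another filter, centring or quantile normalization, array weights, robust moderation, the compared arrays alone, the negative-control median as covariate and mice left out.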

Additional observations from a re-analysis of the deposited data

Results flagged for a closer look

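Each of the 33 members on the array was examined in each of the 4 groups for a mouse far from its group, 132 sets of 5 mice. A mouse was set apart where its gap to the nearest other mouse was over 0.71 of the range of the group. This held in 10 sets, and chance sets apart about 1 in 20 groups.

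Combined mouse 5 was far above its group for Irf7 at 7.47, Rtp4 at 7.74 and Psmb8 at 8.23, with the next mice at 5.16, 6.35 and 6.93. PM2.5 mouse 5 was far above its group for the GTPase genes Gbp2 at 10.4, Gbp3 at 8.46 and Igtp at 10.26, with the next mice at 8.54, 7.54 and 8.51. Usp18 was low in PM2.5 mouse 2 at 6.58, with the next mouse at 7.5, and in metformin mouse 1 at 7.07, with the next at 8.23. In filtered air, Mx2 was low in mouse 5 at 6.08, with the next at 6.91, and Xaf1 was high in mouse 2 at 7.06, with the next at 6.71.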

How the results depend on the processing

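Counts of members called are given out of 30. In the combined group against filtered air (7 with all mice) the count was 15 with array weights, 4 with the compared arrays alone, and 0 with the negative-control median as covariate or without combined mice 2 and 4. Against metformin (2) the count was 4 with quantile normalization or array weights, and 0 with the compared arrays alone, the covariate or without combined mice 2 and 4. Of all genes, 1934, 1893, 1021, 1009 and 499 passed in that order. Against PM2.5 (0) the count was 1 with the filter at the 60th percentile, median centring, array weights or robust moderation, where 1497, 1311, 1247 and 1390 of all genes passed. PM2.5 against filtered air (0) gave 1 with array weights and 2 with the compared arrays alone, where 1376 and 770 of all genes passed. Without combined mouse 5 and PM2.5 mouse 5 together, an alternative added after seeing the data, the counts were 22, 11 and 9 in the combined comparisons and 1 for PM2.5. For PM2.5, 320 of all genes passed there. Both mice were singled out by high values in these same members, so these counts are descriptive only. Leaving out 1 mouse at a time gave 3 to 22 against filtered air, 0 to 11 against metformin, 0 to 9 against PM2.5 and 0 to 1 for PM2.5 alone. The count for metformin alone and that for the interaction were 0 in every alternative run.

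The covariate moved the class medians of the combined group against filtered air to -0.13 (type I) and 0.35 (interferon-gamma type), and Parp9 to 0.02. Without combined mice 2 and 4 the type I median of the interaction was 0.15. Over all genes tested, calls in the combined group against filtered air were 4136, 1054 with the covariate and 2544 without combined mice 2 and 4. Against metformin they were 1933, and 1021 (compared arrays alone), 1009 (covariate) and 499 (without those mice). Against PM2.5 they were 1383, and 509, 79 and 206 in the same order. For PM2.5 against filtered air they were 612, 1376 with array weights, 938 without combined mice 2 and 4 and 320 without both mice 5. For metformin they were 373, 854 with array weights and 147 with the covariate. For the interaction they were 22, 108 with array weights, 44 with the covariate, 10 without combined mice 2 and 4 and 221 without both mice 5. Leaving out 1 mouse gave 3394 to 4338, 1138 to 2407, 637 to 2143, 208 to 759, 157 to 487 and 7 to 289 in the same order of comparisons. The causes were not tested. No paired analysis was possible because the labels' numbers do not pair mice across groups. For Isg15, Mx1 and the members below the filter, signal close to the negative controls limits what could be seen.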
